A study of Drosophila melanogaster with 75 samples.

Results

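Courting male flies were compared with the males of a second social arm after 20 min. The comparison rests on 10 of the 15 arrays of the series, 5 of the courtship arm and 5 of the male arm, chosen by their titles. Each array held RNA from the heads of a pool of 20 virgin males of isogenized Canton-S, a laboratory wild-type strain of Drosophila melanogaster, aged 5 days and kept singly for the last day. Courtship-arm males met a virgin female disabled by cautery. The title and source name of the male arm set it apart, but under treatment it carries the courtship arm's text and nothing states what those males met, so it is called the male arm here. Control-arm males (5 arrays) were mock-exposed, and all 3 arms carry the remark that only males courting for 70% of the observation were kept. Labels describe pools of males and say nothing of separate days or cultures, so every p-value measures the spread between pools.

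A male fly decides what to do with another fly from its odours, its contact pheromones, its song and its movement. Neurons that make the male form of Fruitless, a transcription factor spliced differently in the sexes, direct courtship towards females and fighting towards males. Within minutes of strong activity neurons switch on immediate early genes, many of them transcription factors, while repressors of the Hairy and Enhancer of split (HES) family switch other genes off with the help of Groucho. A head holds brain, eyes, fat body, muscle, blood cells and cuticle, so its RNA mixes these tissues, and fewer cells of a type cannot be told apart from less RNA per cell.

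Levels below are log2 of GC-RMA intensity, the combined brightness of the probes of a probe set after a background correction that uses probe composition, and differences are courtship minus male on that scale. A gene was called at an adjusted p under 0.05 in limma over the 8926 probe sets whose mean level over the 15 arrays was at least 4, out of 18769. As a check of the tissue, the photoreceptor channel gene trp averaged 14.23 ± 0.16 in courtship-arm heads and 13.94 ± 0.11 in male-arm heads (SD, n = 5 each). Of 18 listed genes of female tissue 2 were bright enough to test, Yp3 (9.62 in courtship-arm and 9.67 in male-arm heads) and fit (12.57 in courtship-arm and 12.53 in male-arm heads). Of 19 genes of the male reproductive tract 1 was bright enough, Acp95EF.

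Male arrays 1 and 5 stood apart from the other 8 arrays of the comparison. For 5 pairs of control probe sets, 1 at each end of a transcript, the mean log2 ratio of the 3' end to the 5' end grows as RNA breaks down. Actin and GAPDH are each covered by more than 1 pair. Male array 1 had a ratio of 3.99 and male array 5 of 3.26, the other 8 arrays had 2.50 to 2.77, and control array 1 had 3.54. The mean ratio was 2.68 ± 0.06 in the courtship arm and 3.05 ± 0.60 in the male arm (SD, n = 5 each; exact two-sided permutation p = 0.278). On the first principal component, with 45.9% of the variance, the same male arrays lay at -46.2 and -38.3 and the others of these arms between -7.29 and 23.4. The median SD of a probe set was 0.145 in the courtship arm and 0.194 in the male arm, or 0.0989 over male arrays 2 to 4. Results are therefore given with and without male arrays 1 and 5, and the part of RNA quality in them was not tested.

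With all 15 arrays in the model no probe set was called (0 of 8926, a background of 0%), and the smallest adjusted p, shared by hry and comm2, was 0.0938. At an unadjusted p under 0.05 in limma stood 1354 probe sets, 15.2% of those tested. Of these, 710 (7.95%) were higher and 644 (7.21%) lower in courting males. dChip PM and dChip PM-MM each called hry alone, GeneSpring GC-RMA called hry and comm2, and MAS5 called none, with 1295, 1223, 1343 and 1252 probe sets at an unadjusted p under 0.05. Without male arrays 1 and 5 limma called 1 probe set (0.0112%), of CG11052, and 507 (5.68%) stood at an unadjusted p under 0.05. The control arrays enter the estimate of spread in these fits. With only the 10 courtship and male arrays in the model, limma called 0 probe sets and the smallest adjusted p was 0.430. In that fit 969 (10.9%) stood at an unadjusted p under 0.05.

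The sizes on each side differed with those 2 male arrays. A difference of at least 1.5-fold was met by 386 higher and 39 lower probe sets with all arrays, but by 28 higher and 61 lower ones without them. The 710 higher probe sets had a median difference of 0.44, or 0.23 without the 2 arrays, and the 644 lower ones -0.29, or -0.20. All of the 710 and all of the 644 kept their sign without the 2 arrays, and 155 and 188 of them kept an unadjusted p under 0.05. Across the 5 processings 698 of the 710 and 618 of the 644 had 1 sign. The probe sets were chosen with all arrays, and the other settings reuse those arrays or most of them. A kept sign is therefore no separate support for a difference.

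**Figure D1:**
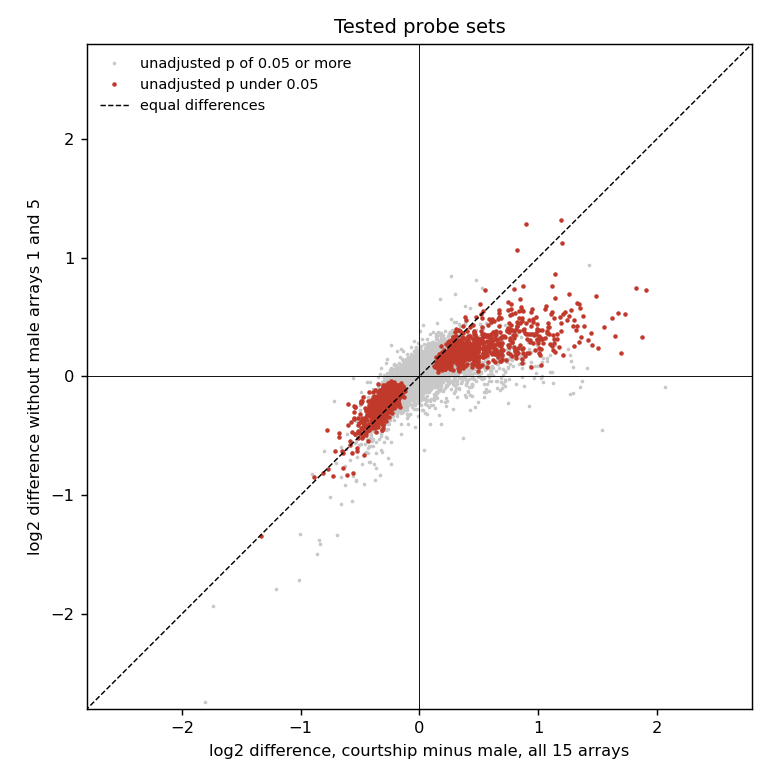
Log2 difference (courtship minus male) of each of the 8926 tested probe sets with all 15 arrays (horizontal) and without male arrays 1 and 5 (vertical). Red points have an unadjusted p under 0.05 with all arrays, and the dashed line marks equal differences; the higher probe sets on the right mostly lie below it, while the lower ones on the left lie nearer to it.

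The gene most separated between the arms was hry (hairy), a basic helix-loop-helix repressor of the HES family that patterns the embryo and sense organs. It read 12.06, 12.45, 12.52, 12.25 and 12.14 in courtship-arm heads, against 11.73, 11.34, 11.57, 11.72 and 11.06 in male-arm heads. Each courting pool was above every male-arm pool, and male arrays 1 and 5 lay at the top and the bottom of their arm. The difference was 0.80 ± 0.13 (SE), or 1.74-fold (adjusted p = 0.0938), and 0.74 without male arrays 1 and 5 (adjusted p = 0.0974). In the other processings it was 0.66 in dChip PM (adjusted p = 0.00508), 0.66 in PM-MM (0.0153), 0.67 in MAS5 (0.153) and 0.76 in GeneSpring (0.0397). Control heads read 11.60 ± 0.09, close to the male arm, so both other arms were under the courting males.

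comm2, a relative of commissureless, which keeps the guidance receptor Robo off growing axons, led the genes that were lower in courting males. It read 8.53, 8.29, 8.63, 8.12 and 8.51 in courtship-arm heads, against 9.14, 9.07, 8.87, 8.96 and 9.01 in male-arm heads. The arms did not overlap, and male array 1 was the highest of all. The difference was -0.59 ± 0.10 (SE; adjusted p = 0.0938), -0.54 without those arrays (0.653), and -0.34 to -0.57 in the other processings, where GeneSpring alone called it (0.0397). Controls averaged 8.59 ± 0.12, nearer the courting males.

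cwo (clockwork orange), an Orange-domain repressor of the circadian clock, was measured by 2 tested probe sets, and both were higher in courting males. Its dimmer one read 7.27, 7.92, 7.68, 7.15 and 7.46 in courtship-arm heads, against 6.06, 6.70, 6.74, 6.77 and 6.85 in male-arm heads. Male array 1 lay far below the rest of its arm, yet the other 4 male arrays were also under all courting pools, and the difference of 0.87 (adjusted p = 0.174) was 0.76 without male arrays 1 and 5. The brighter one read 11.89, 11.89, 11.69, 11.58 and 11.57 in courtship-arm heads, against 11.53, 11.06, 11.43, 11.39 and 10.96 in male-arm heads, a narrow gap with a difference of 0.45 ± 0.14 (SE; adjusted p = 0.325; 0.43 without the 2 arrays). Controls sat with the male arm on the dimmer probe set (6.82) and with the courting males on the brighter one (11.68).

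CG12290 had the tightest groups among the leading genes. It read 9.52, 9.49, 9.39, 9.44 and 9.39 in courtship-arm heads, against 9.16, 9.16, 9.16, 9.12 and 9.14 in male-arm heads, with no overlap and a difference of 0.30 both with and without male arrays 1 and 5 (adjusted p = 0.295 and 0.779). Snp (Snipper), a 3'-to-5' exonuclease, read 6.29, 6.39, 6.65, 6.62 and 6.48 in courtship-arm heads, against 5.57, 5.87, 6.03, 5.88 and 5.71 in male-arm heads. That was a difference of 0.67 ± 0.12 (SE; adjusted p = 0.174; 0.56 without the 2 arrays), with no overlap. A brighter second probe set of Snp did not share it, at 9.39 in courtship-arm and 9.37 in male-arm heads.

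faf, HUWE1 and DnaJ-1 were among the other leading higher genes. faf (fat facets), a deubiquitinating enzyme, averaged 9.53 ± 0.17 in courtship-arm and 9.05 ± 0.26 in male-arm heads (SD, n = 5 each). HUWE1, a HECT ubiquitin ligase, averaged 6.83 ± 0.19 in courtship-arm and 6.20 ± 0.41 in male-arm heads. The Hsp40 co-chaperone DnaJ-1 averaged 11.81 ± 0.13 in courtship-arm and 11.40 ± 0.23 in male-arm heads. Their differences were 0.48, 0.63 and 0.41, or 0.30, 0.46 and 0.28 without male arrays 1 and 5, each at an adjusted p of 0.325 with all arrays. The arms did not overlap for any of the 3. Of the other probe sets of faf, one averaged 8.41 in courtship-arm and 7.59 in male-arm heads with no overlap (0.82, or 0.43), and a dim one differed by -0.07. CG17786 (0.67), CG45263 (0.52) and Socs16D, of the suppressor of cytokine signalling family (0.84), completed the 10 leading higher genes, and without the 2 arrays they stood at 0.54, 0.52 and 0.55.

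The leading lower genes kept most of their size without male arrays 1 and 5. Srr, the serine racemase that makes the glutamate receptor co-agonist D-serine, read 8.60, 8.35, 8.45, 8.63 and 8.54 in courtship-arm heads, against 8.92, 9.01, 8.89, 8.87 and 8.88 in male-arm heads. All courting pools were below all male-arm pools, by -0.40 ± 0.08 (SE; adjusted p = 0.324), and by -0.41 without the 2 arrays. Spn43Ad, a serpin (an inhibitor of serine proteases), read 5.17, 4.71, 5.19, 4.76 and 5.28 in courtship-arm heads, against 5.39, 5.62, 5.31, 6.01 and 6.04 in male-arm heads. Its highest courting pool nearly touched its lowest male-arm pool, and it differed by -0.65 ± 0.16 (-0.63 without the 2 arrays; adjusted p = 0.325). The other 7 of the 10 leading lower genes were CG11679, CG5704, CG9667, CG5335, CG31915, CG10165 and CG3335, with differences of -0.24 to -0.49 (-0.21 to -0.44 without the 2 arrays). Some were smaller in other processings. CG9667 (-0.37) differed by -0.11 in dChip PM, -0.12 in PM-MM, -0.15 in MAS5 and -0.30 in GeneSpring. In the same order CG31915 (-0.24) differed by -0.10, -0.10, -0.17 and -0.23, and Spn43Ad by -0.38, -0.44, -0.76 and -0.57.

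**Figure D2:**
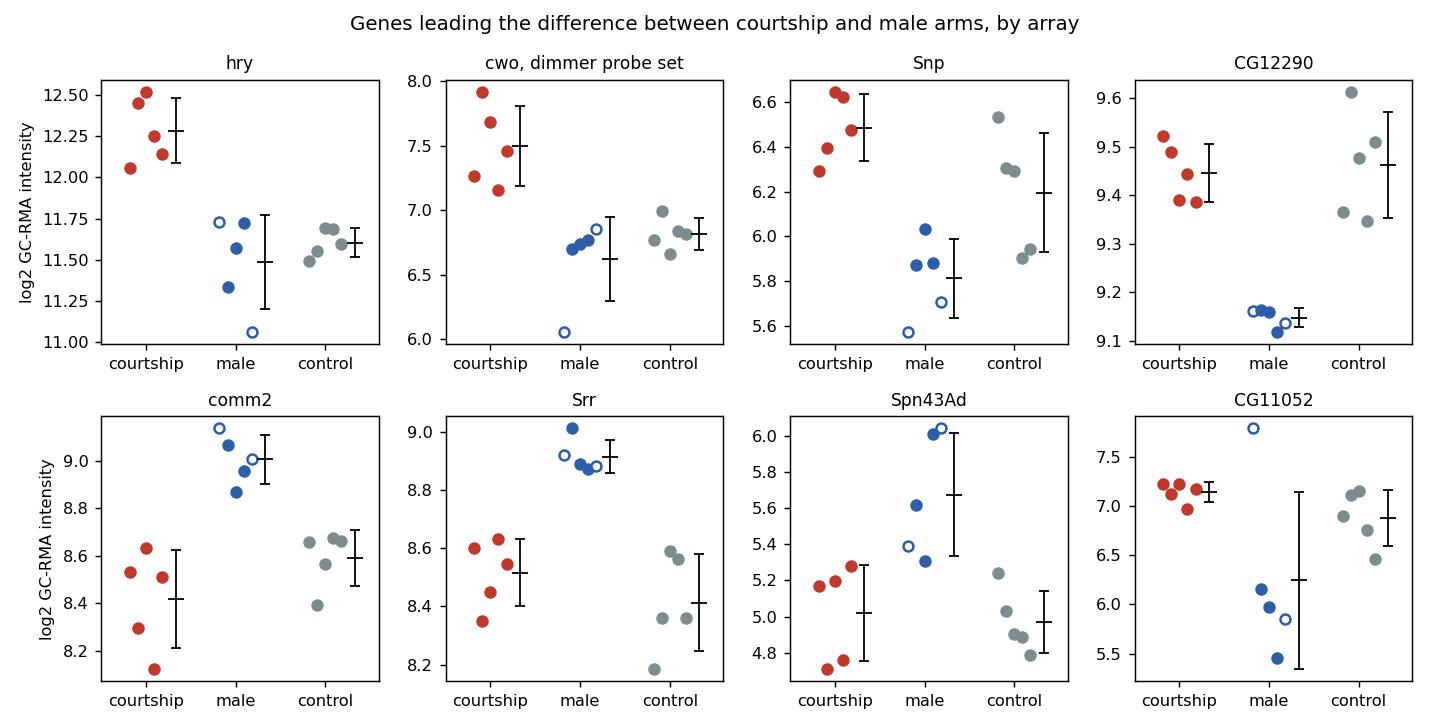
Log2 GC-RMA intensity of 8 genes on each of the 15 arrays, in courtship, male and control arms (open circles are male arrays 1 and 5; bars give mean ± SD, n = 5). hry and the dimmer probe set of cwo were higher in courting males than in both other arms, comm2 and Srr were lower than in the male arm without overlap, and CG11052 was low on 4 male arrays and highest of all on male array 1.

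Complete separation of the arms was rare. All 5 courtship arrays were above all 5 male arrays for 73 probe sets (0.818%) and below them for 91 (1.02%). In all 5 processings at once this held for 13 above (0.146%) and 1 below (0.0112%). The 13 were hry, Snp, CG12290, CG17786, HUWE1, CG45263, DnaJ-1, Mppe, the brighter probe set of cwo, Clk, Hecw, CG33543 and 1 without a gene name, and the 1 below had no gene name either. Mppe, a phosphatase needed for the trimming of sugars on rhodopsin, and Hecw, another HECT ubiquitin ligase, were chosen after their values were seen, with differences of 0.26 and 0.47 (0.18 and 0.33 without male arrays 1 and 5).

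CG11052, the gene called without male arrays 1 and 5, was named after its values were seen. It read 7.23, 7.12, 7.22, 6.97 and 7.17 in courtship-arm heads, against 7.79, 6.16, 5.97, 5.46 and 5.86 in male-arm heads. Male array 1 was above every courting pool and the other 4 were below them all, so the difference was 0.90 ± 0.32 (SE; adjusted p = 0.325) with all arrays, and 1.28 without male arrays 1 and 5 (adjusted p = 0.0370). Without male arrays 1 and 5 MAS5 and GeneSpring also called CG11052, while neither dChip processing did. It did not pass when control array 1 was left out as well.

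Among the clock genes, 12 of 18 measured were higher in courting males and 6 lower (median 0.11, and 0.10 when male arrays 1 and 5 were left out). Over all 7313 genes measured, 3324 were higher, or 45.5%, and the median was -0.02 (0.01 without the 2 arrays). Clk, the activator of the clock, read 9.61, 10.12, 9.72, 9.71 and 9.56 in courtship-arm heads, against 7.62, 9.35, 9.35, 9.18 and 9.01 in male-arm heads. No male-arm pool reached a courting one, but male array 1 lay far below, and the difference of 0.84 ± 0.26 (SE; adjusted p = 0.325) was 0.45 without the 2 arrays. dco, the Doubletime kinase that marks Period for breakdown, averaged 10.75 ± 0.18 in courtship-arm and 10.42 ± 0.15 in male-arm heads (adjusted p = 0.325), with courting pool 5 inside the male-arm range. The cycling repressor genes per and tim differed by 0.02 and -0.04. The 5 members with an unadjusted p under 0.05, cwo, Clk, dco, nocte and tws, were all higher, and 7.95% of all tested probe sets stood on that side at that threshold.

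All 7 measured genes of the HES list were higher in courting males (median 0.26, or 0.21 with 6 of 7 higher without male arrays 1 and 5). Of them 4 had an unadjusted p under 0.05, beside 7.95% of all tested probe sets that were higher at that threshold. The list holds hry and cwo, which earlier results of these data had singled out, so its count is no separate evidence. E(spl)mbeta-HLH, a repressor switched on by Notch, read 7.68, 7.38, 7.65, 7.81 and 7.96 in courtship-arm heads, against 7.59, 7.25, 7.17, 7.24 and 7.26 in male-arm heads. Only male array 1 reached into the courting range, and the difference was 0.39 ± 0.12 (SE; adjusted p = 0.325), or 0.47 without the 2 arrays. Sidpn (0.26), the corepressor gene gro, Groucho (0.15), E(spl)m3-HLH (0.13) and E(spl)m2-BFM (0.08) differed less. The list thus also takes in genes that are not HES repressors, among them gro. The mean of the 7 genes was 0.22 to 0.36 above the control mean on every courtship array, against -0.16 to 0.08 on the male arrays. That mean includes hry and cwo, so the gap between the arms is no separate evidence either.

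Immediate early and other activity-regulated genes had small differences. Of 17 measured, 13 were higher in courting males (median 0.12, and 0.13 when male arrays 1 and 5 were left out). At an unadjusted p under 0.05, 7.95% of all tested probe sets were higher, and so were 2 of the 17. Those were Ptp61F, a tyrosine phosphatase of the JAK/STAT pathway (8.30 ± 0.18 in courtship-arm and 7.85 ± 0.38 in male-arm heads), and the transcription factor gene cbt, cabut (12.11 ± 0.08 in courtship-arm and 11.85 ± 0.25 in male-arm heads), at differences of 0.45 and 0.26, or 0.21 and 0.11 without the 2 arrays. The nuclear receptor gene Hr38, a marker of recent neural activity in insects, averaged 8.33 ± 0.25 in courtship-arm and 8.37 ± 0.22 in male-arm heads. The Fos gene kay differed by 0.12, and Arc1, of the Arc family of synaptic genes, by 0.12. Chaperone genes were higher in 11 of 12 (median 0.12, and 0.08 when the 2 arrays were left out), with DnaJ-1 and its relative Droj2 (0.24) in front.

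No gene best known from courtship was called, but neither was any other probe set in the main test (0 of 8926). The absence of a call therefore does not set these genes apart. At an unadjusted p under 0.05 in limma, 1 of 13 courtship and aggression genes was higher, fru (fruitless), and 0 were lower. Of all tested probe sets, 7.95% were higher and 7.21% lower at that threshold. fru read 10.06, 10.11, 9.99, 9.90 and 9.70 in courtship-arm heads, against 9.80, 9.69, 9.67, 9.54 and 9.20 in male-arm heads. Only courting pool 5 lay within the male-arm range, and the difference was 0.37 ± 0.11 (SE; adjusted p = 0.325), or 0.32 without male arrays 1 and 5. Its partner dsx (doublesex) averaged 9.10 ± 0.12 in courtship-arm and 9.01 ± 0.14 in male-arm heads. Sex-determination genes as a list were higher in 8 of 14 (median 0.03; 0.09 with 12 higher without male arrays 1 and 5), with her, a zinc-finger gene of the pathway, at -0.32. Courtship and aggression genes were higher in 9 of 13 (median 0.03; 0.08 with 10 higher without the 2 arrays). Cyp6a20, a P450 linked to aggression in males, differed by 0.17, and lush, the binding protein for the male pheromone cVA, by -0.22 (5.07 ± 0.25 in courtship-arm and 5.29 ± 0.25 in male-arm heads). The probe set of cac, a calcium channel needed for normal song, ranged over 3.16 to 7.73 in the courtship arm and 7.07 to 8.41 in the male arm, and its difference of -1.74 ± 1.18 (SE) had an adjusted p of 0.433.

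**Figure D3:**
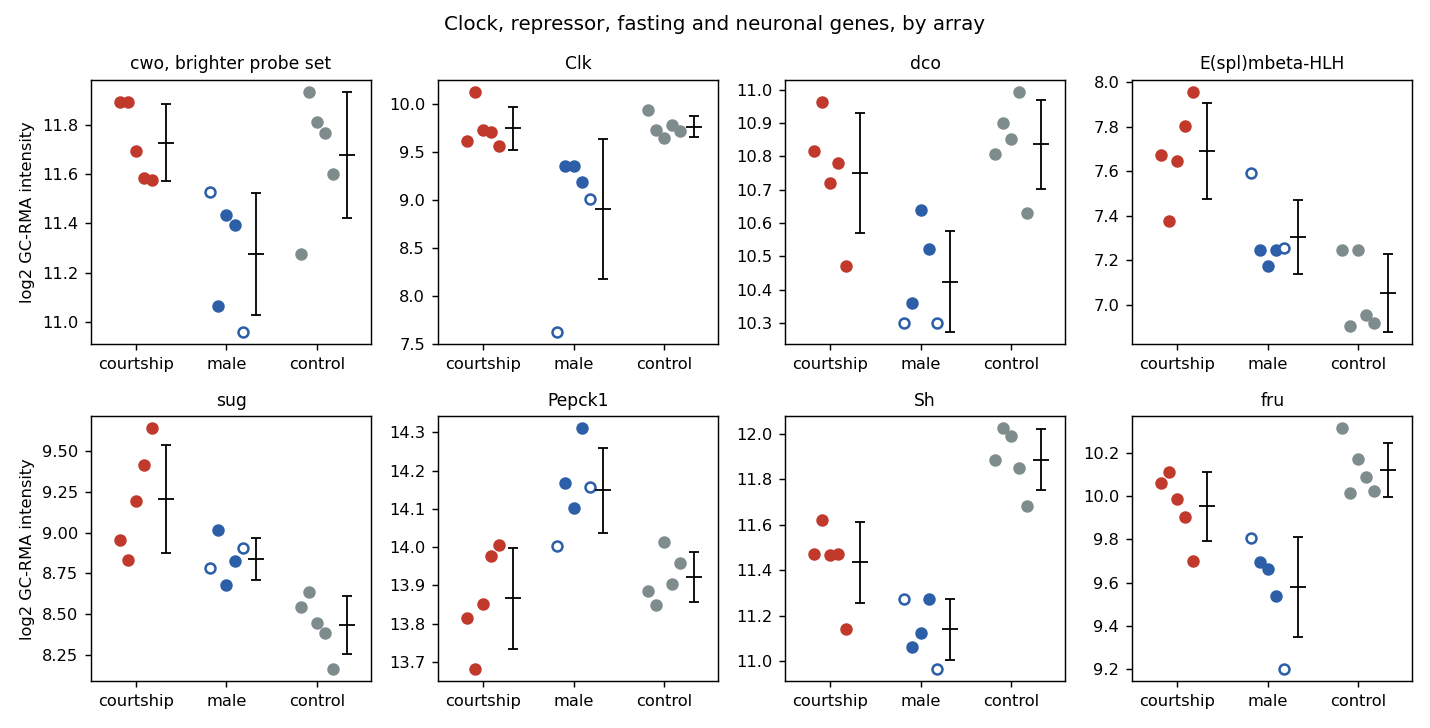
Log2 GC-RMA intensity of 8 genes of the clock, HES, fasting and neuronal lists on each of the 15 arrays, in courtship, male and control arms (open circles are male arrays 1 and 5; bars give mean ± SD, n = 5). Clk and the brighter probe set of cwo were separated between courtship and male arms, while dco, fru, Sh and sug each had at least 1 courting pool within the male-arm range.

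Genes of neurons were mostly higher in courting males, by amounts that shrank without male arrays 1 and 5. Of 29 synaptic genes 28 were higher (median 0.21, or 0.13 with 26 higher without the 2 arrays), of 17 potassium channel genes 14 (0.18, or 0.12), and of 14 sodium and calcium channel genes 13 (0.44, or 0.25). nSyb, the neuronal synaptobrevin of synaptic vesicles, read 10.65, 11.13, 10.50, 10.78 and 10.46 in courtship-arm heads, against 8.51, 10.32, 10.54, 10.31 and 8.67 in male-arm heads. Male arrays 1 and 5 were low and male array 3 lay among the courting pools, so the difference of 1.03 ± 0.40 (SE; adjusted p = 0.325) was 0.31 without the first pair. Sh, the Shaker potassium channel, read 11.47, 11.62, 11.47, 11.47 and 11.14 in courtship-arm heads, against 11.27, 11.06, 11.12, 11.27 and 10.97 in male-arm heads. Here male arrays 1 and 5 did not stand out, the difference was 0.29 with all arrays and 0.28 without them, and only courting pool 5 fell among the male-arm pools.

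Other named neuronal genes divided in the same way. The adhesion gene Nlg3, a neuroligin, differed by 0.70 (0.28 without male arrays 1 and 5), the channel gene NaCP60E by 0.92 (0.47), the acetylcholine receptor subunit gene nAChRalpha5 by 0.95 (0.36) and the GABA receptor gene GABA-B-R1 by 0.69 (0.49). With all arrays these 4 differed less in dChip PM (0.05, 0.40, 0.28 and 0.22, in that order) and in PM-MM (0.11, 0.42, 0.19 and 0.42). MAS5 gave 0.71, 0.75, 0.84 and 0.95, and GeneSpring 0.64, 0.85, 0.85 and 0.80. Teh1, an auxiliary subunit of the sodium channel, differed by 0.48 (0.50) and the receptor subunit gene nAChRalpha7 by 0.20 (0.20), so these did not depend on the 2 arrays. Irk2, an inward-rectifier potassium channel, was lower in courting males, at 10.30 ± 0.17 in courtship-arm and 10.59 ± 0.09 in male-arm heads (-0.29, or -0.24). Each named gene here had an adjusted p of 0.325. With a block for the initial of the sample code, Nlg3, NaCP60E, nAChRalpha5 and nSyb were called, at 1.11, 1.47, 1.60 and 1.79 (adjusted p = 0.0493, 0.0467, 0.0486 and 0.0486). That fit called 169 probe sets (1.89%), the labels do not say what the initial means, and male arrays 1 and 5 are the only male arrays that share one with a courtship array.

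Receptor and modulator genes were spread around these values. Monoamine genes were higher in 17 of 20 (median 0.09, and 0.12 when male arrays 1 and 5 were left out). None stood at an unadjusted p under 0.05 in limma, beside 15.2% of all tested probe sets, and with 20 genes this does not set the list apart. The serotonin receptor gene 5-HT7 differed by 0.59 (0.30 without the 2 arrays) and the octopamine receptor gene Octbeta1R by 0.71 (0.14), each with 1 low male array. Neuropeptide genes were higher in 17 of 31 (median 0.04, or 0.10), with the ion transport peptide gene ITP at 0.42 (0.16) and the leucokinin receptor gene Lkr at 0.53 (0.41). Acetylcholine receptor genes were higher in 6 of 9 (median 0.04, or 0.10) and genes of GABA and glutamate signalling in 12 of 17 (0.13, or 0.04). Genes of learning and memory were higher in 16 of 19 (median 0.12, or 0.10), among them the cAMP sensor gene Epac at 0.36 (0.33) and the kinase gene Pka-C3 at 0.23 (0.20).

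Eye genes followed with smaller differences. Phototransduction genes were higher in 19 of 23 (median 0.08, and 0.11 when male arrays 1 and 5 were left out). trp, the light-activated channel, read 14.36, 14.45, 14.17, 14.13 and 14.06 in courtship-arm heads, against 13.90, 14.04, 14.04, 13.95 and 13.79 in male-arm heads. The arms did not overlap, and the difference was 0.29 ± 0.09 (SE; adjusted p = 0.325), or 0.22 without the 2 arrays. eys, which opens the space between the light-sensing membranes, differed by 0.94 (0.54), and male array 5 held its lowest value.

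Splicing and RNA-binding genes were higher in 26 of 27 (median 0.19; 0.11 with 21 higher when male arrays 1 and 5 were left out), with the neuronal RNA-binding gene Syp at 0.93 (0.31) and qkr58E-2 at 0.30 (0.19). Chromatin genes were higher in 20 of 30 (median 0.07, or 0.08), with gpp, the histone methyltransferase of the Dot1 family, at 0.46 (0.37). Hormone signalling genes were higher in 14 of 22 with all arrays and in 14 of 22 without the 2 (median 0.09, or 0.13). Its 2 members named by rule encode juvenile hormone receptors, Met at 5.72 ± 0.25 in courtship-arm and 4.42 ± 1.19 in male-arm heads, and gce at 4.49 ± 0.29 in courtship-arm and 3.62 ± 0.65 in male-arm heads. Met read 3.31 and 3.05 on male arrays 1 and 5, against 4.69 to 5.57 on the other male arrays. The differences of 1.30 for Met and 0.87 for gce were 0.47 and 0.55 without the 2 arrays. Those 2 Met readings and the male-arm mean of gce lay under 4, the mean level asked of a tested probe set. Without the 2 arrays the male-arm mean of gce was 3.94, still under that level. The low side of these differences is therefore dim, and their sizes are uncertain.

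Muscle genes were higher in 19 of 22 (median 0.14, and 0.11 when male arrays 1 and 5 were left out), 9 of them higher at an unadjusted p under 0.05, as were 7.95% of all tested probe sets. The sarcomere genes tn (0.40, or 0.25) and Zasp66 (0.26, or 0.12) were named by the rule, and the giant protein gene Msp300 differed most, by 1.36 (0.33), with 4.85 on male array 1 and 7.42 to 8.84 on the rest of its arm. Genes of the vacuolar proton pump were higher in 13 of 15 (median 0.09, or 0.06), with VhaAC45 at 0.15 (0.12) and Vha100-1 at 0.26 (0.06).

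**Figure D4:**
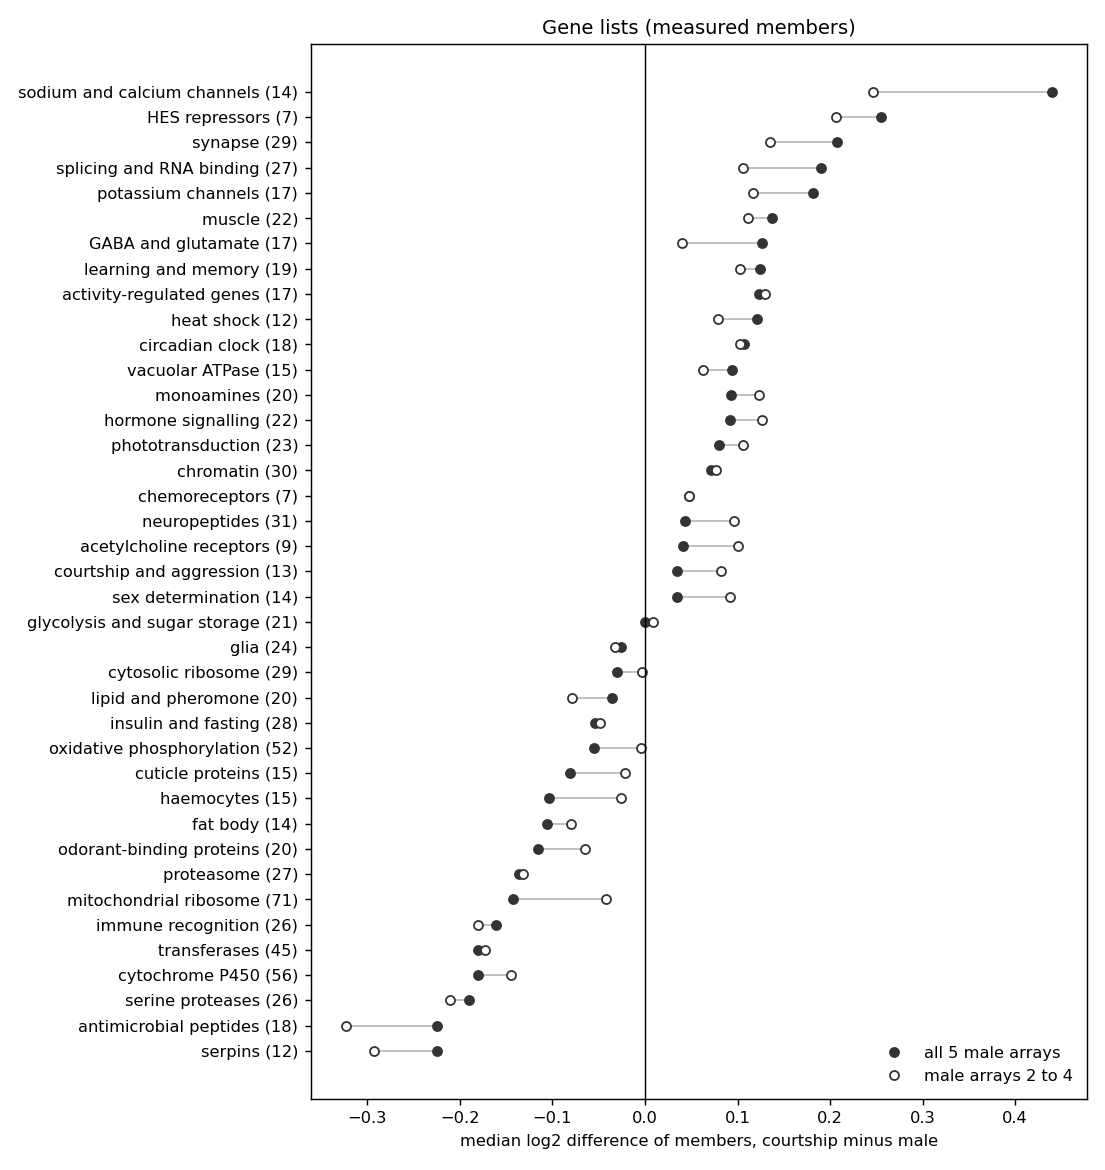
Median log2 difference (courtship minus male) of the measured members of 39 gene lists with at least 5 members, with all 5 male arrays (filled) and with male arrays 2 to 4 (open); the number of members follows each name. Channel, synaptic and splicing genes and the HES list lie on the side of courting males, and serpin, antimicrobial, detoxification and mitochondrial ribosome genes on the side of the male arm, with the mitochondrial ribosome near 0 without male arrays 1 and 5.

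Genes that clear foreign compounds were lower in courting males. Of 56 cytochrome P450 genes 53 were lower (median -0.18; -0.15 with 45 lower when male arrays 1 and 5 were left out), 10 of them at an unadjusted p under 0.05, where 7.21% of all tested probe sets were lower. Of 45 glutathione and UDP-sugar transferase genes 41 were lower (-0.18, or -0.17). Cyp12e1, a mitochondrial P450, read 7.59, 7.20, 7.75, 7.62 and 7.81 in courtship-arm heads, against 8.14, 7.91, 7.95, 7.81 and 8.23 in male-arm heads. The arms met at courting pool 5 without crossing, and the difference was -0.41 ± 0.14 (SE; adjusted p = 0.325), or -0.30 without the 2 arrays. Cyp309a1 (-0.52, or -0.41), GstZ1 (-0.36, or -0.29) and GstE11 (-0.42, or -0.31) were the other genes named. Courting pools spread widely here: the mean P450 level was -0.19 relative to controls on courtship array 2 and 0.38 on courtship array 5, against 0.21 to 0.37 on the male arrays.

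Immune genes were lower in courting males as well. Antimicrobial peptide genes were lower in 17 of 18 (median -0.22; -0.32 with all 18 lower when male arrays 1 and 5 were left out), immune recognition genes in 22 of 26 (-0.16, or -0.18), serpins in 11 of 12 (-0.23, or -0.29) and serine protease genes in 23 of 26 (-0.19, or -0.21). Male array 4 weighed heavily here: relative to controls its antimicrobial mean was 0.84, against -0.26 to 0.19 on the other male arrays and -0.60 to 0.32 on the courtship arrays. It was also the highest male array for immune recognition (0.40, the others -0.03 to 0.15) and serpins (0.44, the others 0.00014 to 0.16), but not for serine proteases. BomS4, a Bomanin peptide of the Toll response, read 11.39, 11.10, 11.52, 11.64 and 11.85 in courtship-arm heads, against 11.68, 11.74, 11.94, 11.94 and 12.10 in male-arm heads. Courting pool 5 lay within the male-arm range and the other 4 below it, and the difference was -0.38 ± 0.13 (SE; adjusted p = 0.325), or -0.37 without the 2 arrays. GNBP2, of the glucan-binding recognition family, read 9.34, 8.96, 9.41, 9.47 and 9.58 in courtship-arm heads, against 9.60, 9.59, 9.65, 9.73 and 10.03 in male-arm heads, below in every pool and different by -0.37 (-0.31).

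The inducible peptides varied too much between pools to compare. AttD, an attacin against Gram-negative bacteria, ranged over 3.60 to 10.69 in the courtship arm and 4.15 to 11.65 in the male arm, and its difference of -1.80 ± 1.91 (SE) had an adjusted p of 0.606. The defensin gene Def had a difference of -1.02 and ranged over 8.02 to 12.80 in the courtship arm and 9.93 to 13.36 in the male arm. psh, the protease Persephone upstream of Toll, differed by -0.39 (-0.28 without male arrays 1 and 5), Spn88Ea by -0.23 (-0.31) and the neprilysin-like peptidase gene Nepl5 by -0.33 (-0.22), each at an adjusted p of 0.325.

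Genes of protein turnover and mitochondria were lower with small sizes. Proteasome genes were lower in 25 of 27 (median -0.14; -0.13 with 25 lower when male arrays 1 and 5 were left out), 7 of them at an unadjusted p under 0.05, again beside 7.21% of all tested probe sets. Rpn12, a subunit of the regulatory cap, read 9.70, 9.47, 9.73, 9.70 and 9.88 in courtship-arm heads, against 10.01, 9.99, 9.95, 9.92 and 9.90 in male-arm heads, with no overlap and a difference of -0.26 in both settings. The catalytic subunit gene Prosbeta5 differed by -0.24 (-0.17). Mitochondrial ribosome genes were lower in 69 of 71 (median -0.14), but without the 2 arrays 19 were higher and the median was -0.04. On male arrays 1 and 5 their mean was 0.43 and 0.36 above controls, against 0.06 to 0.21 on the other male arrays and -0.09 to 0.20 on the courtship arrays. Oxidative phosphorylation genes were lower in 41 of 52 (median -0.06, or 0.00) and cytosolic ribosome genes in 23 of 29 (-0.03, or 0.00).

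**Figure D5:**
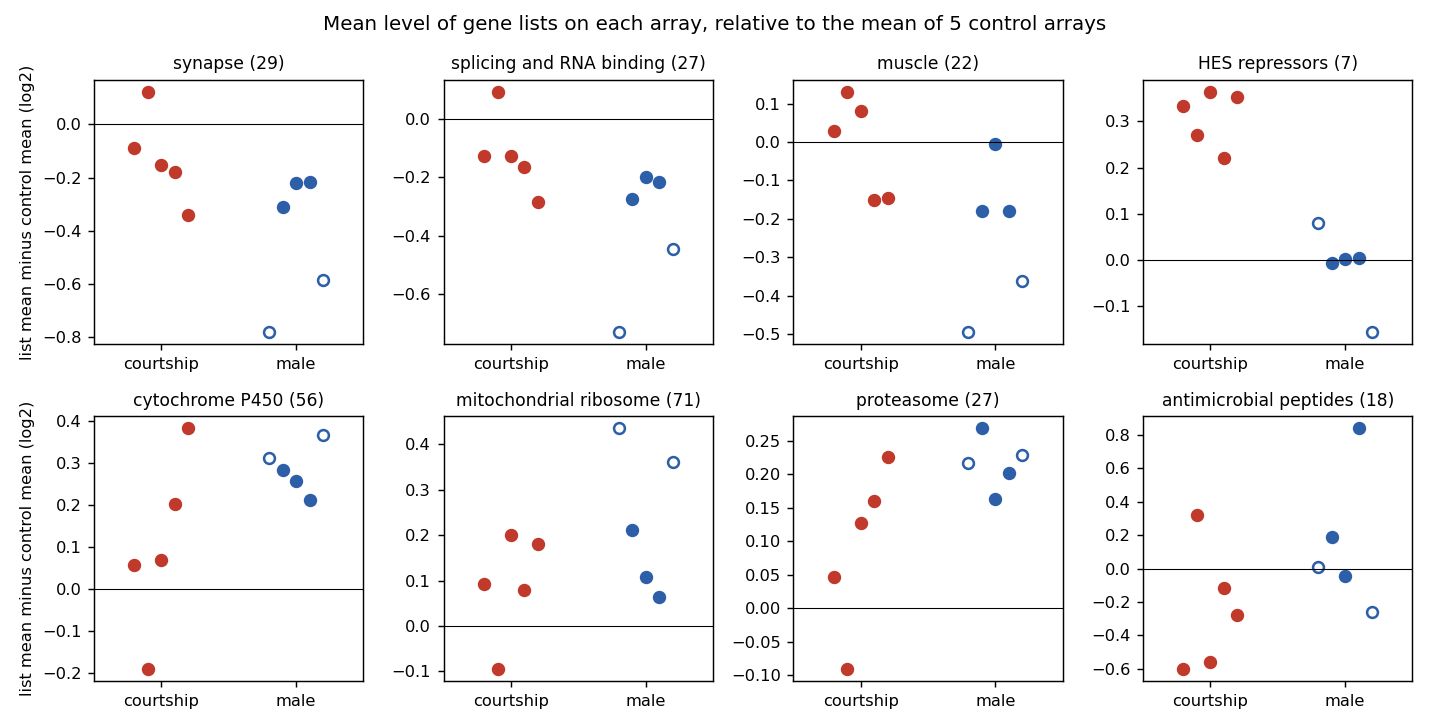
Mean log2 level of the measured members of 8 gene lists on each courtship and male array, relative to the mean of the 5 control arrays (open circles are male arrays 1 and 5; the number of members follows each name). The mean of the HES list, which includes hry and cwo, does not overlap between the arms. For synaptic, splicing and proteasome genes at least 1 courtship array lies within the male range, and for P450 genes 4 courtship arrays lie below that range and 1 above it.

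Fuel genes divided by gene. Pepck1, the enzyme that starts glucose synthesis, read 13.81, 13.68, 13.85, 13.98 and 14.01 in courtship-arm heads, against 14.003, 14.17, 14.10, 14.31 and 14.16 in male-arm heads. Courting pool 5 just reached the lowest male-arm pool, and the difference was -0.28 ± 0.07 (SE; adjusted p = 0.325), or -0.33 without male arrays 1 and 5. sug (sugarbabe), a transcription factor induced by dietary sugar, read 8.95, 8.83, 9.19, 9.41 and 9.64 in courtship-arm heads, against 8.78, 9.01, 8.68, 8.82 and 8.90 in male-arm heads. Courting pools 3, 4 and 5 were above every male-arm pool and the others among them, and the difference was 0.37 ± 0.14 (SE; adjusted p = 0.325), or 0.37 without the 2 arrays. The insulin and fasting list as a whole split 11 higher to 17 lower (median -0.05), glycolysis and sugar storage genes 11 to 10 (0.00), and lipid and pheromone genes 9 to 11 (-0.04).

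With all arrays, fat body and haemocyte markers were mostly lower in courting males, but their mean levels overlapped between the arms. Muscle markers, given above, went the other way. The part of tissue make-up in the immune and P450 results was not tested. Fat body genes were lower in 10 of 14 (median -0.11, and -0.08 when male arrays 1 and 5 were left out), and their mean level was 11.15 to 11.53 on the courtship arrays and 11.40 to 11.55 on the male arrays. Haemocyte genes were lower in 11 of 15 (-0.10, or -0.03 with 7 higher and 8 lower), at means of 7.73 to 8.32 on the courtship arrays and 7.95 to 8.22 on the male arrays. The blood cell marker Hml averaged 6.06 ± 0.74 in courtship-arm and 6.55 ± 0.53 in male-arm heads, and the larval serum protein gene Lsp2, a fat body marker, 11.72 ± 0.26 in courtship-arm and 11.95 ± 0.37 in male-arm heads. Glial genes were lower in 16 of 24 (median -0.03), with the engulfment receptor gene drpr at 0.25 (0.14) and wrapper at -0.29 (-0.13). Odorant-binding proteins were lower in 17 of 20 (-0.12, or -0.07), cuticle proteins in 12 of 15 (-0.08, or -0.02), and chemoreceptors in 2 of 7 (median 0.05 higher).

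The control arm was set beside both social arms as a description with no test, because a gene selected for a difference between them has one of its arms in each distance. For 1306 of the 1354 probe sets (96.5%) the control mean was nearer the courtship mean than the male mean, against 80.7% of all tested probe sets. With male arrays 2 to 4 alone the shares were 93.4% and 74.9%. The 48 others, 26 higher and 22 lower in courting males, included the dimmer probe set of cwo and, named after their values were seen, several genes of transcription and signalling. Besides hry, E(spl)mbeta-HLH and sug, they held the homeobox gene Dr (9.65 in courtship-arm, 9.14 in male-arm and 9.01 in control heads), edl, a regulator of Ets transcription factors (7.45 in courtship-arm, 7.21 in male-arm and 7.15 in control heads), and cbt (12.11 in courtship-arm, 11.85 in male-arm and 11.97 in control heads). Among the lower ones were Spn88Ea (10.07 in courtship-arm, 10.30 in male-arm and 10.23 in control heads) and Cyp28d2 (5.80 in courtship-arm, 6.10 in male-arm and 6.19 in control heads).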

How the data were processed

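Total RNA of 15 head pools was biotin-labelled for 15 Affymetrix Drosophila arrays, 1 a pool, per the labels' protocols. The authors deposited each array in 5 processings (dChip PM, dChip PM-MM, MAS5, and GC-RMA in R and in GeneSpring) as 75 columns of linear intensity, per the labels. GCOS 1.2 and GCRMA appear in the submitters' processing notes, with other versions not given in the sources used here. No column was left unused (0). Log2 was taken here of the deposited intensity, after PM-MM values below 1 (746) were set to 1. Of 18952 probe sets 183 controls were left out, and 8926 with a mean R GC-RMA log2 of at least 4 were tested. GC-RMA narrows the spread of dim probe sets, and the number of arrays limits precision.

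The main test was a one-way limma model (version 3.58.1 in R 4.3.3) over 3 arms with 12 residual degrees of freedom and Benjamini-Hochberg adjustment. It was tested on simulated data. Summaries used pandas 2.3.3 under Python 3.11.15 with numpy 2.4.6, and figures matplotlib 3.10.9. The platform annotation named the genes: of the tested probe sets 7886 carried 1 symbol, 228 several and 812 no symbol, and a gene stands for its brightest tested probe set.

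The genes and the 41 lists were chosen with earlier results of these data known, and 11 entries that matched a wrong gene were taken out after values had been seen. Named genes were the 10 smallest p per direction with 1 sign in all 5 processings (the rule when under 6 pass), the 2 smallest p of each list with at least 5 members, and up to 5 genes per direction without overlap in all 5 processings. Other genes were picked as examples after their values were seen. Alternatives were the other processings, filters, scalings, blocks, variance settings, array weights, 10 arrays, a covariate for the 3'-to-5' ratio, and arrays left out.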

Additional observations from a re-analysis of the deposited data

Results flagged for a closer look

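In 16 of 184 groups of 5 arrays 1 array lay so far from the other 4 that its gap to the nearest was over 0.71 of the group's range, Dixon's critical value. Chance flags about 1 group in 20. Of these, 14 were on male arrays 1 or 5. Male array 5 held the low value for HUWE1 (5.49), 5-HT7 (4.20), ITP (9.30), eys (6.45), Droj2 (12.91), qkr58E-2 (9.49), gpp (7.39) and drpr (10.50), and the high value for Irk2 (10.75) and psh (8.71). Male array 1 held the low value for the dimmer probe set of cwo (6.06), Octbeta1R (5.36) and Clk (7.62), and the high value for E(spl)mbeta-HLH (7.59). The other flags were vir on male array 3 (5.84, where the rest of the arm read 6.13 to 6.24) and Vha100-1 on courtship array 5 (11.30, where the rest of the arm read 11.50 to 11.57).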

How the results depend on the processing

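Without any change limma called 0 probe sets and 1354 stood at an unadjusted p under 0.05. Calls numbered 1 in dChip PM, 1 in PM-MM, 2 in GeneSpring, 3 with array weights (hry, CG11052 and cwo), 2 with quantile normalization, 2 at an adjusted p of 0.10 and 169 with a block for the code letter, the initial of the sample code, whose meaning is not given in the labels. Named genes it called were faf, Socs16D, Nlg3, nSyb, NaCP60E, nAChRalpha5, dco and Syp (higher) and CG11679 and CG10165 (lower), at adjusted p of 0.0467 to 0.0497. The code letter block put 2478 at an unadjusted p under 0.05; courtship and male arms share only letters A and H, which are male arrays 1 and 5. Leaving out 1 array gave 0 to 2 calls (2 without male array 1, CG11052 and hry) and 553 (without courtship array 2) to 1797 at an unadjusted p under 0.05, with 773 without male array 5. Without male arrays 1 and 5 the count was 507 with 1 call, without those and control array 1 it was 579 with 0 calls, and it was 718 with 0 calls in the model that adjusted for the 3'-to-5' ratio. In the other processings without those male arrays it was 477 in dChip PM (2 calls), 519 in PM-MM (2), 548 in MAS5 (2) and 468 in GeneSpring (1). With no filter it was 2239 of 18769, of which 30.1% were higher, against 52.4% at the main filter, 63.0% in dChip PM, 73.6% in PM-MM and 43.0% with quantile normalization. No list was tested, and lists are described by their medians alone. No label ties the replicate numbers to a shared day or source, and they were not used as pairs: deviations of same-numbered courtship and male arrays correlated at 0.228, 0.264, -0.288, 0.220 and 0.300, and the replicate block gave 0 calls and 1901 at an unadjusted p under 0.05. Among the genes named by rule, signs turned only without male arrays 1 and 5: wrapper to 0.11 in MAS5, Obp8a to 0.057 in PM-MM, Vha100-1 to -0.038 in MAS5, and Cpr49Ag to 0.033 in MAS5 and 0.0078 in GeneSpring. Some list medians turned with all arrays: insulin and fasting to 0.0074 in dChip PM and 0.017 in PM-MM, and courtship and aggression to -0.046 in MAS5. Chemoreceptors turned to -0.023 in dChip PM and -0.0074 in PM-MM, and glycolysis and sugar storage to -0.061 in MAS5. In dChip PM the median shrank to 0.21 for sodium and calcium channels and to -0.11 for P450 genes. The cause was not tested for any of these.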
